A study of Mus musculus with 8 samples.

Results

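The subunits of respiratory chain complexes I to IV were examined in regenerating muscle of aged mice. Members were set by a rule on gene symbols, as the nuclear genes that encode subunits of these complexes. No measured value entered the rule, but earlier results of these data were known when it was chosen. They came to 66 of the 19752 genes with a value on the arrays, with 36 in complex I, 4 in complex II, 9 in complex III and 17 in complex IV. Of these, 65 passed the filter on dim genes and were tested. Cox7b2, a testis isoform of complex IV, was the exception, with log2 intensities from 4.60 to 4.87. Cox7c and Ndufb4 had values only on probe sets shared with other symbols and are described at the end, and Ndufb1 and Ndufb4c were not analysed here.

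The study asked about interleukin 33, a cytokine released by damaged cells, in the repair of old muscle. All arrays were made from whole tibialis anterior, a fast hindlimb muscle, of male mice that the labels give as 99 weeks old and the design text as 22 months old. The muscle had been injured with a frozen metal probe held against it for 8 s and was collected 8 days later. The 4 rIL-33 samples came from mice given 2 µg recombinant interleukin 33 (rIL-33) into the peritoneum on the days before and after injury, and the 4 PBS samples from mice whose treatment is labelled PBS. In both groups the genetic background was labelled C57BL/6 for replicates 1 and 2, and WT for replicates 3 and 4. No engineered allele is named for any sample. The sources used here do not say what separates the 2 labels, so the label cannot be told apart from anything else that the replicates 1 and 2 share. Nothing states either that the arrays of a group stand for separate mice, so the p-values speak of the spread among these samples, which may be partly technical.

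The respiratory chain sits in the inner mitochondrial membrane. Complex I (NADH dehydrogenase) and complex II (succinate dehydrogenase) pass electrons to ubiquinone, complex III passes them on to cytochrome c, and complex IV (cytochrome c oxidase) reduces oxygen, while complexes I, III and IV pump the protons that drive ATP synthesis. Muscle fibres are rich in these complexes, and several complex IV subunits exist as a form of heart and skeletal muscle beside a form found in most tissues.

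The measurements were intensities of probe sets on whole-transcript mouse arrays from Affymetrix, given here as log2 intensity. Differences are log2 differences between group means, with their standard error (SE) from limma. Levels of different genes are not set against each other, since each probe set has its own brightness. The median intensity of the arrays ran from 222.6 to 232.2. The lower quartile ran from 88.3 to 93.8 on the arrays labelled C57BL/6 and from 97.1 to 107.3 on those labelled WT, so the labels also differed in their dim signal. The tissue label was borne out by its markers: the skeletal actin gene Acta1 had log2 intensities from 13.82 to 14.00 and the fast myosin gene Myh4 from 13.35 to 13.62. In all, 51 of the 65 members lay among the brightest 3704 of the 14814 genes tested.

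The largest differences among the respiratory chain genes separated the genetic background labels. With treatment as a covariate, 31 of 65 members were lower under the WT label than under the C57BL/6 label at an adjusted p under 0.05 (limma, Benjamini-Hochberg over all 14814 genes tested), and 0 were higher. Over all genes tested, 6.2% were lower by this rule and 3.19% were higher, and among the brightest 3704 genes 9.37% were lower and 0.432% higher. Of the 51 members in that bright class, 25 were called lower. At an unadjusted p under 0.05, 46 members were lower, against 18.0% of all genes. For 31 members every WT array lay below every C57BL/6 array, which held for 11.1% of all genes. The direction was shared beyond the called genes: 57 of 65 members were lower under the WT label, against 54.1% of all genes and 69.6% of the bright class. The median difference of the members was -0.30, against -0.02 over all genes and -0.08 over the bright class, and single members ranged from -0.78 to 0.16. The label difference also ran with brightness, since the dimmest 3704 genes had a median of 0.14. In whole muscle, fewer muscle fibres and less of the transcript per fibre cannot be told apart.

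Seen array by array, the mean of the 65 members, each set relative to its own mean over the 8 arrays, was 0.12, 0.17, 0.23 and 0.05 on PBS 1, PBS 2, rIL-33 1 and rIL-33 2. It was -0.20, -0.25, 0.01 and -0.13 on PBS 3, PBS 4, rIL-33 3 and rIL-33 4. The labels did not overlap in this mean, with rIL-33 2 the lowest array labelled C57BL/6 and rIL-33 3 the highest array labelled WT.

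**Figure D1:**
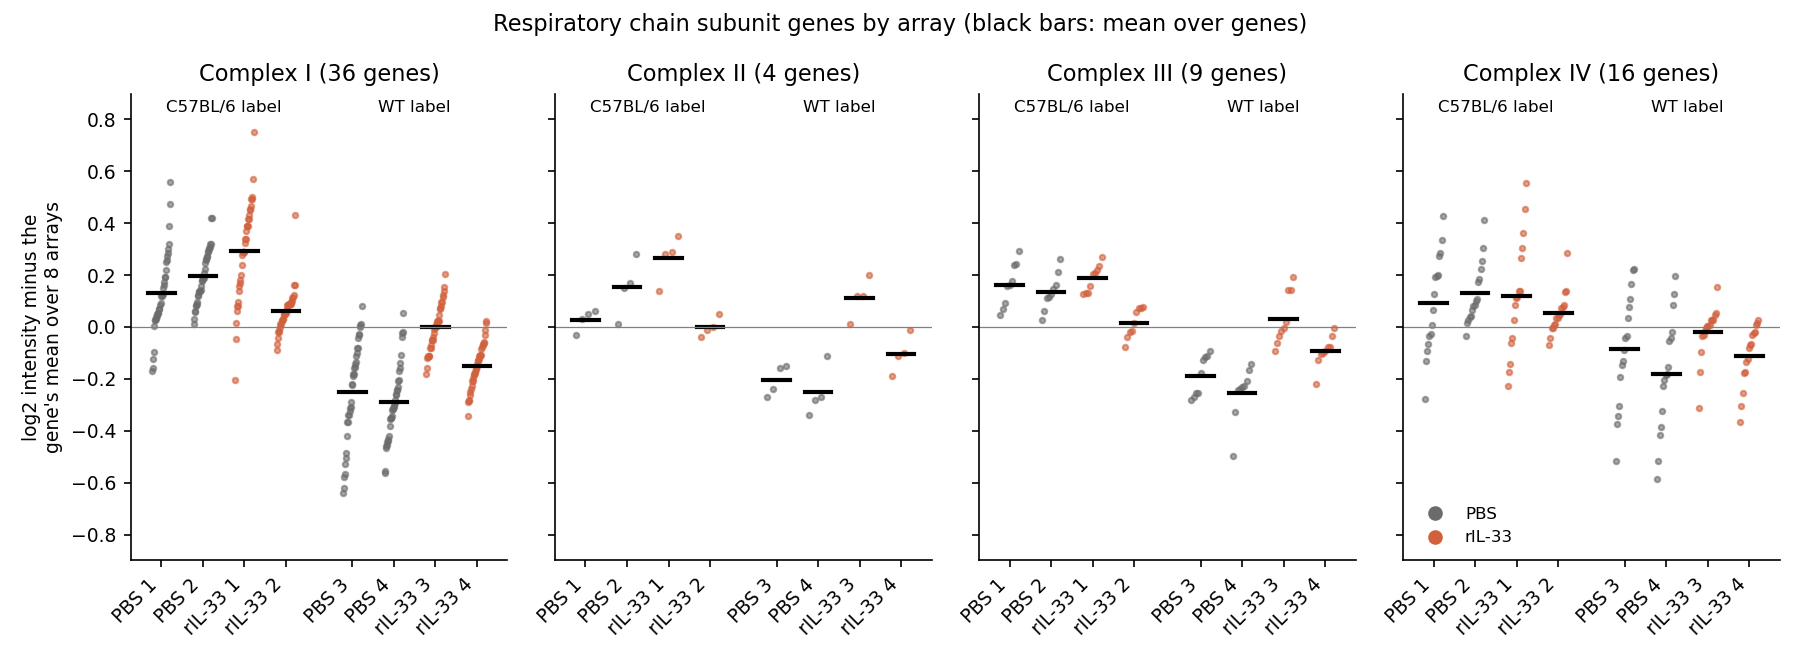
Each point is 1 subunit gene on 1 array, plotted as its log2 intensity minus that gene's mean over the 8 arrays, with complexes I to IV in separate panels, PBS in grey and rIL-33 in orange. Black bars are means over the genes of a complex; for complex I they lie from 0.06 to 0.29 on the C57BL/6 arrays and from -0.29 to -0.002 on the WT arrays.

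The count of called members changed widely with which array was left out of the fit, and with the scaling. Without PBS 1 it was 1 and without PBS 2 it was 3, against 0.351% and 0.662% of all genes called lower. Without PBS 3, PBS 4 or rIL-33 1 it was 0 in each case, against 0.128%, 0.081% and 0.0675%. Without rIL-33 2, 3 or 4 it was 40, 26 and 15, against 10.8%, 3.18% and 3.93%. The median of the members stayed between -0.35 and -0.26. After quantile normalization 10 members were called against 2.07% of all genes, with a median of -0.22, and after cyclic loess normalization 12 against 2.37%, also with a median of -0.22.

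Complex I held most of the called members. Of its 36 genes, 33 were lower under the WT label, 22 of them past the threshold, with a median of -0.36. Ndufs8, a core subunit that carries iron-sulphur clusters, had log2 intensities of 11.74, 11.74, 11.71 and 11.51 on PBS 1, PBS 2, rIL-33 1 and rIL-33 2. It had 11.20, 11.07, 11.24 and 11.16 on PBS 3, PBS 4, rIL-33 3 and rIL-33 4. All WT arrays thus lay below all C57BL/6 arrays, with means of 11.17 ± 0.07 and 11.68 ± 0.11 (SD, n = 4 each), a difference of -0.51 (SE 0.08, limma adjusted p = 0.0126) or 1.42-fold.

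Ndufa6, an accessory subunit of the matrix arm, had 11.31, 11.44, 11.49 and 11.31 on the C57BL/6 arrays, in the same order, and 10.81, 10.83, 11.04 and 10.97 on the WT arrays. The labels did not overlap, and the difference was -0.47 (SE 0.07, limma adjusted p = 0.0137). The Ndufb genes encode accessory subunits of the membrane arm, which do not themselves carry electrons, and 6 of 9 were called lower. Ndufb8 had 10.70, 10.53, 10.64 and 10.31 under C57BL/6 and 9.72, 9.76, 10.20 and 9.94 under WT, a difference of -0.64 (SE 0.12, limma adjusted p = 0.0225). Its lowest C57BL/6 array, rIL-33 2, stood just above its highest WT array, rIL-33 3. Ndufb6 differed by -0.54 (SE 0.09, limma adjusted p = 0.0165), Ndufb9 by -0.50 (SE 0.08, limma adjusted p = 0.0165) and Ndufb5 by -0.53 (SE 0.10, limma adjusted p = 0.0229), each without overlap. Ndufb2 differed by -0.72 (SE 0.13, limma adjusted p = 0.0197). For this gene the labels touched, because PBS 1 and rIL-33 3 both read 8.82 after rounding.

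Ndufs5, a small accessory subunit, differed by -0.63 (SE 0.12, limma adjusted p = 0.0229), with 9.76, 9.69, 9.87 and 9.43 on the C57BL/6 arrays and 8.79, 8.95, 9.25 and 9.22 on the WT arrays. Ndufs4, an accessory subunit whose loss in mice is a model of Leigh syndrome, differed by -0.33 (SE 0.06, limma adjusted p = 0.0229), with 12.08 to 12.24 under WT and 12.44 to 12.61 under C57BL/6. Both genes were separated by label on every array. Ndufa4 was counted with complex I by its symbol, although its protein is now known as a subunit of complex IV. It had 11.28, 11.29, 11.49 and 11.05 under C57BL/6 and 10.51, 10.54, 10.99 and 10.82 under WT, a difference of -0.56 (SE 0.11, limma adjusted p = 0.026). The largest difference of any member was that of Ndufa1, a small membrane subunit singled out after its values were seen. It had 8.93, 8.79, 8.94 and 8.37 under C57BL/6 and 7.73, 7.81, 8.37 and 8.03 under WT, a difference of -0.78 (SE 0.16, limma adjusted p = 0.0265).

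By name group, 10 of 15 Ndufa genes, 6 of 9 Ndufb genes, 5 of 7 Ndufs genes and 1 of 2 Ndufc genes were called lower, with medians of -0.38, -0.50, -0.40 and -0.32. The 3 Ndufv genes, which encode the flavoprotein part that oxidises NADH, differed by only -0.13 to -0.10, and 0 of them were called. Among the 6 core subunits measured here, Ndufv1, Ndufv2, Ndufs1, Ndufs3, Ndufs7 and Ndufs8, the median was -0.21 with 3 called, and among the 30 other complex I members it was -0.38 with 19 called. The difference between these groups of subunits was not tested. Ndufs7, the core subunit next to the ubiquinone site, differed by 0.02, Ndufa3 by 0.06 and Ndufb7 by 0.11, the 3 complex I members that were not lower. Ndufa4l2, a form of Ndufa4 induced by low oxygen, differed by -0.14 (SE 0.09, limma adjusted p = 0.297).

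**Figure D2:**
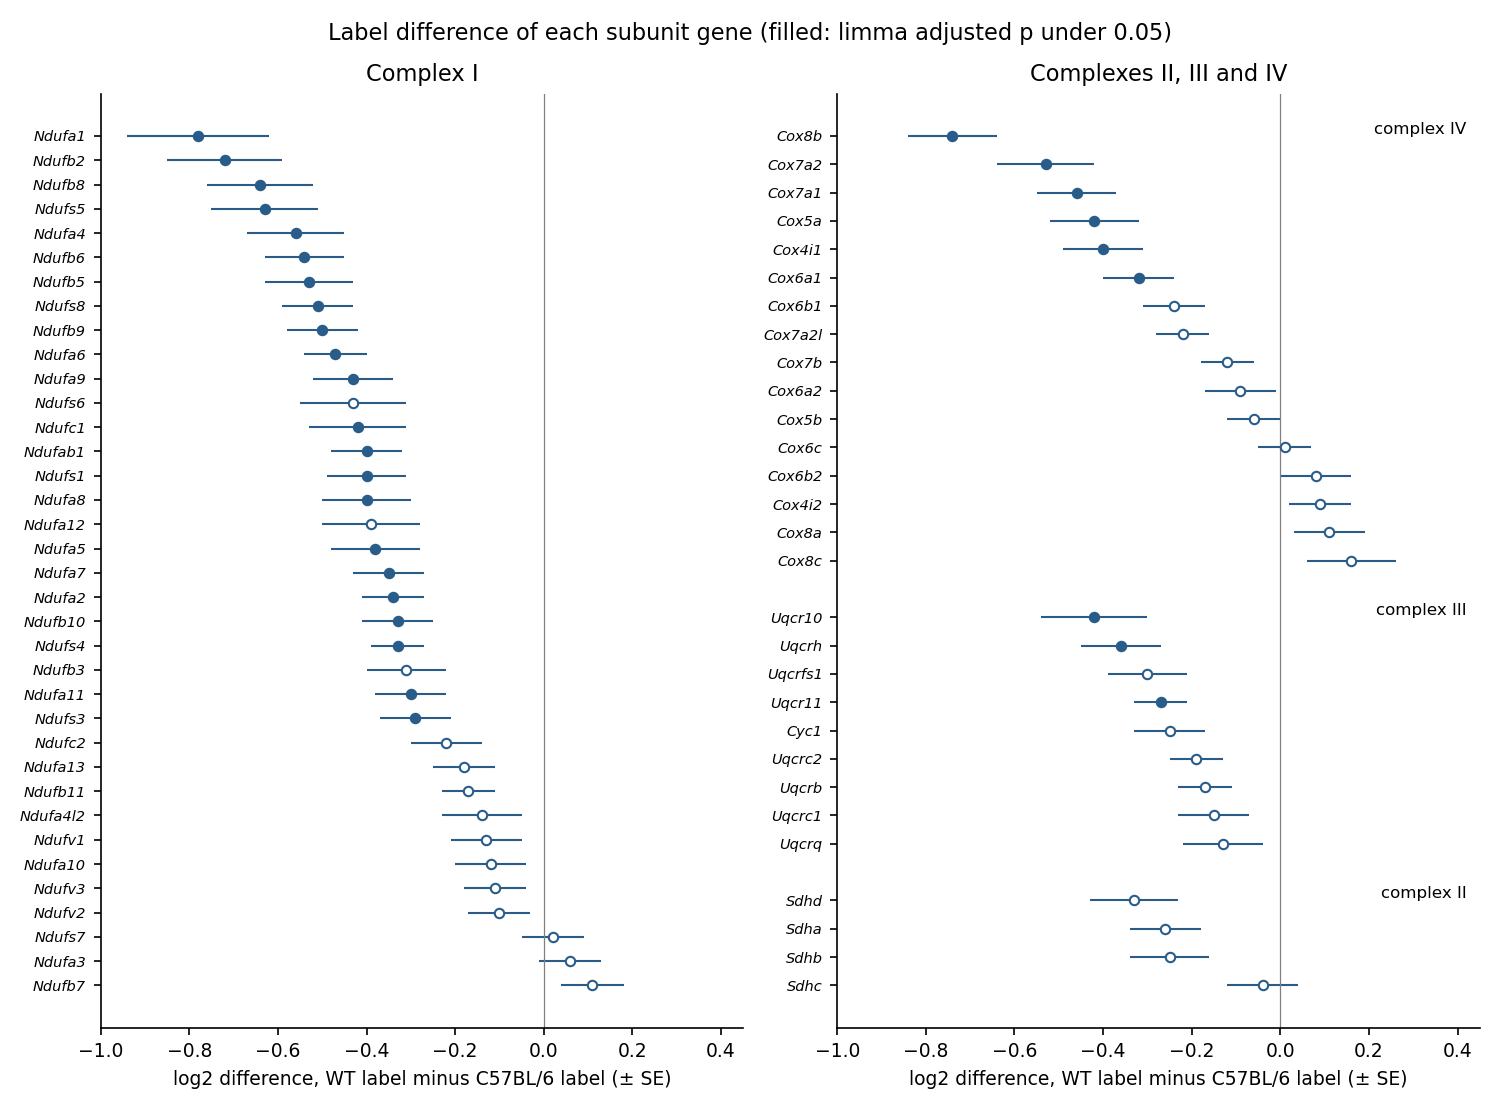
Each point is the log2 difference of 1 subunit gene, WT label minus C57BL/6 label, with bars of 1 SE from limma, in order of size within each complex; filled points have an adjusted p under 0.05. Ndufa1 at -0.78 and Cox8b at -0.74 lie farthest to the left, and no filled point lies right of 0.

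Complex II, the only one of the 4 that is also an enzyme of the tricarboxylic acid cycle, had 4 of 4 members lower under the WT label and 0 past the threshold, with a median of -0.26. Sdha, the flavoprotein that oxidises succinate, had 12.11, 12.23, 12.37 and 12.13 under C57BL/6 and 11.81, 11.81, 12.20 and 11.98 under WT. The labels overlapped on rIL-33 3, and the difference was -0.26 (SE 0.08, limma adjusted p = 0.0735). Sdhb, the iron-sulphur subunit, differed by -0.25 (SE 0.09, limma adjusted p = 0.0872), and of the membrane anchors Sdhd differed by -0.33 (SE 0.10, limma adjusted p = 0.0615) and Sdhc by -0.04 (SE 0.08, limma adjusted p = 0.737).

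In complex III, 9 of 9 members were lower under the WT label and 3 passed the threshold, with a median of -0.25. The 3 are small subunits without redox centres. Uqcr11 had 12.11, 12.08, 12.09 and 11.99 under C57BL/6 and 11.82, 11.70, 11.84 and 11.83 under WT, a difference of -0.27 (SE 0.06, limma adjusted p = 0.0378). Uqcrh, the hinge protein that helps cytochrome c1 meet cytochrome c, had 11.87, 11.89, 11.86 and 11.61 under C57BL/6 and 11.37, 11.30, 11.61 and 11.50 under WT, a difference of -0.36 (SE 0.09, limma adjusted p = 0.0427). The labels were apart for Uqcr11 and touched for Uqcrh, where rIL-33 2 and rIL-33 3 both read 11.61 after rounding. Uqcr10 differed by -0.42 (SE 0.12, limma adjusted p = 0.0495). The catalytic subunits missed the threshold: cytochrome c1, encoded by Cyc1, differed by -0.25 (SE 0.08, limma adjusted p = 0.062) although its labels did not overlap, and the Rieske protein gene Uqcrfs1 by -0.30 (SE 0.09, limma adjusted p = 0.0572). The core protein genes Uqcrc1 and Uqcrc2 differed by -0.15 (SE 0.08) and -0.19 (SE 0.06).

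Complex IV was the most mixed, with 11 of 16 members lower under the WT label, 6 called and a median of -0.17. Cox4i1 and Cox5a encode structural subunits that adjust the activity of the enzyme. Cox4i1 had 11.13, 11.02, 11.11 and 10.92 under C57BL/6 and 10.50, 10.52, 10.89 and 10.67 under WT, a difference of -0.40 (SE 0.09, limma adjusted p = 0.034). The labels did not overlap for Cox4i1, whereas for Cox5a, with a difference of -0.42 (SE 0.10, limma adjusted p = 0.0378), rIL-33 3 at 10.44 stood above rIL-33 2 at 10.42. Cox6b1, a subunit on the side facing the intermembrane space, differed by -0.24 (SE 0.07, limma adjusted p = 0.0505). Cox7a2l, which encodes a factor that joins complexes III and IV rather than a subunit of the enzyme, differed by -0.22 (SE 0.06, limma adjusted p = 0.0581), and Cox5b by -0.06 (SE 0.06). The other probe set of Cox7a2l, of lower mean and not in the fit, differed by -0.44 without overlap between the labels. The testis forms Cox6b2 and Cox8c and the low-oxygen form Cox4i2 differed by 0.08 (SE 0.08), 0.16 (SE 0.10) and 0.09 (SE 0.07), with 0 of these 3 called.

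Of the 6 pairs of related forms, the pair in subunit 8 of cytochrome c oxidase differed most between the labels. Cox8b, the form of heart and skeletal muscle, had 12.74, 12.82, 12.86 and 12.69 under C57BL/6 and 11.89, 11.82, 12.39 and 12.04 under WT. Every WT array was lower than every C57BL/6 array, with means of 12.04 ± 0.25 and 12.78 ± 0.08 (SD, n = 4 each), a difference of -0.74 (SE 0.10, limma adjusted p = 0.0126) or 1.68-fold. Cox8a, the form of most tissues, had 10.99, 10.99, 10.88 and 11.02 under C57BL/6 and 11.19, 11.22, 10.85 and 11.05 under WT. Its labels overlapped, and it differed by 0.11 (SE 0.08, limma adjusted p = 0.338). The log2 difference of the pair, Cox8b minus Cox8a, set relative to its mean over the 8 arrays, was 0.37, 0.45, 0.60 and 0.29 under C57BL/6 and -0.69, -0.78, 0.15 and -0.39 under WT. The labels did not overlap in this quantity, and its change was -0.85, with a p of 0.0286 in an exact permutation test, two-sided, over the 70 assignments of the arrays, the smallest p that 4 arrays against 4 allow. Adjusted over the 6 tests of 3 pairs and 2 comparisons, the p was 0.0857.

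The promoters of this pair are printed because its change between the labels was the largest of the pairs. All promoter sequences here are the 250 bases before the RefSeq transcription start in mouse build GRCm38.p6, written 5′ to 3′ on the strand of the gene. No value in these data measured binding or chromatin at them.
Cox8b promoter, chr7:140900447-140900696, minus strand: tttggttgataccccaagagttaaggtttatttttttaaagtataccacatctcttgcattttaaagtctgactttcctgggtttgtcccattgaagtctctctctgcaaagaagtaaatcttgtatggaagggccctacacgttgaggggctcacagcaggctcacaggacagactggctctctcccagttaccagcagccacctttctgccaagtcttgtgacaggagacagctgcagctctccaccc
Cox8a promoter, chr19:7217617-7217866, minus strand: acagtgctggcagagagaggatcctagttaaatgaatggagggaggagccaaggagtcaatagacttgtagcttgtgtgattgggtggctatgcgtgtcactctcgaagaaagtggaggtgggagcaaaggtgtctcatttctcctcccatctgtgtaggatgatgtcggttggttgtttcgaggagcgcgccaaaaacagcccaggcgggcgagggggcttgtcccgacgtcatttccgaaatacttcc
Neither window held any of the 4 motifs searched on both strands, which were the core of NRF-1, a regulator of many respiratory chain genes (10 letters, seen in capitals in the Ndufa11 promoter), CCGGAAGT (for ETS factors), CAAGATGGC (for YY1) and TCAAGGTCA (for oestrogen-related receptors). Their base composition was 47.2% and 52.8% G and C. In Cox8a the ETS letters were found on the opposite strand at 2 places, 1 across the start with 6 letters before it, and 1 wholly downstream of it.

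For comparison, Ndufa11, a complex I member called lower under the WT label (limma adjusted p = 0.0449), held the NRF-1 letters at 60 to 51 bases before its start. Uqcr11 held the ETS letters at 66 to 59 bases before its start. The same window of Ndufs8, also called lower, held none of the 4 motifs and is not printed. The motif is in capitals in Ndufa11 and Uqcr11.
Ndufa11 promoter, chr17:56717512-56717761, plus strand: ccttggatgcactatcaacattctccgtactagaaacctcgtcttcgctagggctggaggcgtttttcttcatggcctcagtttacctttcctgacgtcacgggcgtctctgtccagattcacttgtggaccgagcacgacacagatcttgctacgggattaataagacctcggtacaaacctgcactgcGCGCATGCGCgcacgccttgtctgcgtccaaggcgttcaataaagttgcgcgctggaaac
Uqcr11 promoter, chr10:80406822-80407071, minus strand: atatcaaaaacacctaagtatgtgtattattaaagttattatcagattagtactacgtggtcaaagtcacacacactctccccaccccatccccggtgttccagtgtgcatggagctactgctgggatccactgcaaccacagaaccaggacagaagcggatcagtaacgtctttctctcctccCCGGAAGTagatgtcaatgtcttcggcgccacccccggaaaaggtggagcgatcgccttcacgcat
Over the windows of 300 bases, 250 before and 50 after the start, the RefSeq table held 52 of the 66 members among 27025 genes. Of these 52, 5.77% held the NRF-1 letters (Cox6a1, Ndufa11 and Uqcrc1), 7.69% the ETS letters (Cox8a, Ndufs3, Uqcr11 and Uqcrh), 7.69% the YY1 letters (Ndufa3, Ndufc1, Ndufs6 and Ndufs7) and 1.92% the receptor letters (Sdhd). The shares over all genes in the table were 1.07%, 4.31%, 1.42% and 0.466%. Any of the 4 was found in 23.1% of members and 6.99% of all genes. Among the members in the table, 22.2% of the 27 called lower under the WT label held at least 1 motif, and 24.0% of the 25 others did.

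Muscle-type and common forms were compared by label in a further pair of subunits, 7a and 6a. Cox7a1, the muscle form of subunit 7a, had 12.45, 12.48, 12.48 and 12.22 under C57BL/6 and 12.03, 11.79, 12.08 and 11.87 under WT, a difference of -0.46 (SE 0.09, limma adjusted p = 0.024). Cox7a2, the common form, had 10.56, 10.59, 10.92 and 10.45 under C57BL/6 and 9.99, 9.85, 10.33 and 10.23 under WT, a difference of -0.53 (SE 0.11, limma adjusted p = 0.0256). Both forms were separated by label on every array, and their log2 difference changed by 0.07 (exact permutation p = 0.543, adjusted 0.543). In subunit 6a, the muscle form Cox6a2 differed by -0.09 (SE 0.08, limma adjusted p = 0.439) and the common form Cox6a1 by -0.32 (SE 0.08, limma adjusted p = 0.0459). The change of that pair was 0.23 (exact permutation p = 0.286, adjusted 0.429). The pairs of a special and a common form were described without a test: Cox4i2 minus Cox4i1 changed by 0.49 without overlap between the labels, Ndufa4l2 minus Ndufa4 by 0.42 and Cox6b2 minus Cox6b1 by 0.32. The common forms differed by -0.40, -0.56 and -0.24, and the special forms by only 0.09, -0.14 and 0.08. The special forms had low mean log2 intensities, 8.12, 8.22 and 7.04, and the label difference ran with brightness over all genes. The part of brightness in these changes was not tested.

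**Figure D3:**
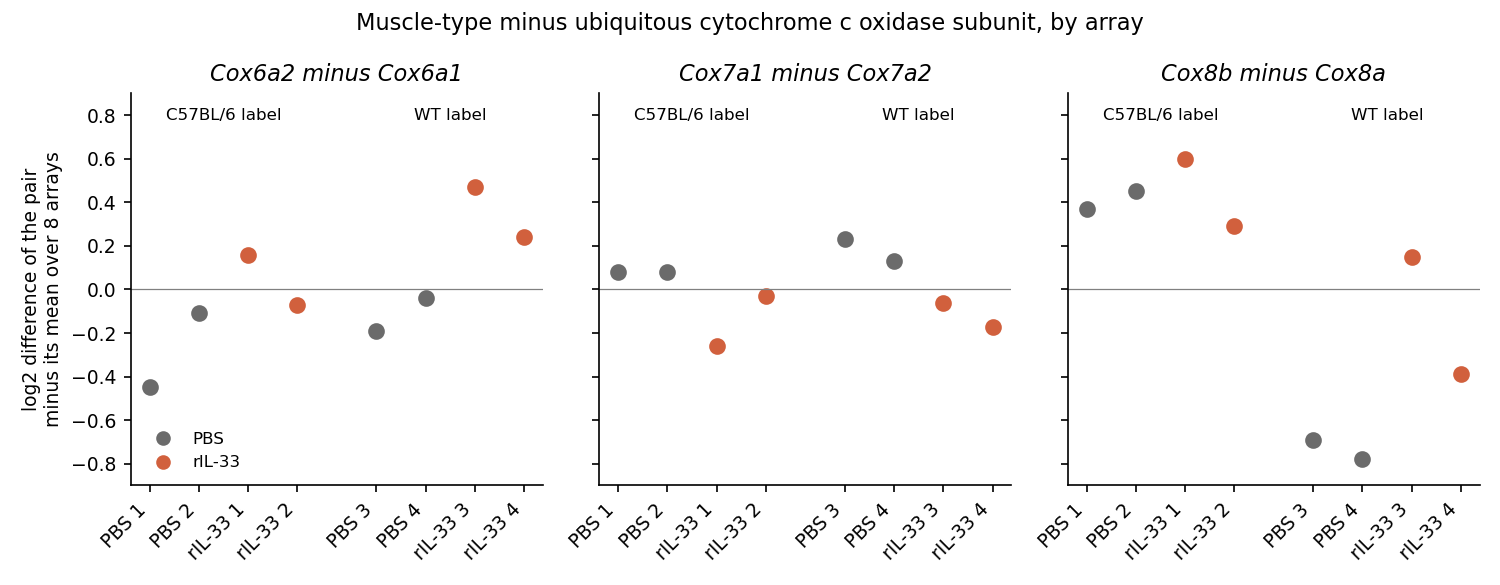
Each point is 1 array, plotted as the log2 difference between the muscle-type and the ubiquitous form of a complex IV subunit minus the mean of that difference over the 8 arrays, with PBS in grey and rIL-33 in orange. For Cox8b minus Cox8a the C57BL/6 arrays lie from 0.29 to 0.60 and the WT arrays from -0.78 to 0.15.

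The comparison that the study was built for, rIL-33 against PBS, gave no called member. Of 65 members, 0 passed the adjusted threshold and 0 had an unadjusted p under 0.05 (limma), where 0.00675% of all genes were called higher, 1 gene, and 0.0% lower, and 4.39% were higher and 5.24% lower at the unadjusted level. The smallest adjusted p of a member was 0.542. Most differences were positive all the same, with 55 of 65 members higher after rIL-33, against 48.0% of all genes and 60.5% of the bright class. Their median was 0.08, against -0.01 and 0.04, and single members ranged from -0.27 to 0.40. The median was 0.04, 0.01 and 0.02 without PBS 3, PBS 4 and rIL-33 1, and 0.14, 0.13 and 0.14 without PBS 1, PBS 2 and rIL-33 4. With the label as a block, the adjusted threshold again called 0 members, with a smallest adjusted p of 0.271. At an unadjusted limma p under 0.05 that fit had 3 members higher, Ndufb2, Ndufa5 and Ndufb3, against 7.92% of all genes, and 1 lower, Cox6a1, against 7.22%. No member was without overlap between the treatment groups, where 2.44% of all genes were higher without overlap and 2.13% lower.

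In complex I, 32 of 36 members had a positive difference, with a median of 0.08. The largest was that of Ndufb2, with 8.82, 9.40, 8.36 and 8.54 on PBS 1 to 4 and 9.73, 9.41, 8.82 and 8.75 on rIL-33 1 to 4. These values overlapped widely, and the difference was 0.40 (SE 0.26, limma adjusted p = 0.634). Ndufa5, a subunit of the matrix arm, had 9.30, 9.30, 8.89 and 8.77 after PBS and 9.67, 9.34, 9.42 and 9.03 after rIL-33, a difference of 0.30 (SE 0.16, limma adjusted p = 0.557). Ndufb3 differed by 0.22 (SE 0.14, limma adjusted p = 0.615). In complex II, 4 of 4 differences were positive with a median of 0.14, among them Sdha with 0.18 (SE 0.12, limma adjusted p = 0.646), Sdhb with 0.15 (SE 0.12), Sdhc with 0.14 (SE 0.08) and Sdhd with 0.08 (SE 0.15). In complex III, 9 of 9 were positive with a median of 0.08, with Uqcrb at 0.11 (SE 0.08), Cyc1 at 0.11 (SE 0.11) and Uqcrc1 at 0.08 (SE 0.10).

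In complex IV, 10 of 16 differences were positive, with a median of 0.03. The member of smallest p was Cox6a1, with 9.58, 9.34, 9.26 and 8.97 on PBS 1 to 4 and 9.11, 9.23, 8.84 and 8.90 on rIL-33 1 to 4. Its difference was negative, -0.27 (SE 0.13, limma adjusted p = 0.542), with means of 9.29 ± 0.25 after PBS and 9.02 ± 0.18 after rIL-33 (SD, n = 4 each). Its muscle counterpart Cox6a2 differed by 0.13 (SE 0.08, limma adjusted p = 0.63). The log2 difference of this pair changed by 0.40 (exact permutation p = 0.0571, adjusted 0.114). That of Cox7a1 minus Cox7a2 changed by -0.26 without overlap between the treatments (exact permutation p = 0.0286, adjusted 0.0857), and that of Cox8b minus Cox8a by 0.33 (exact permutation p = 0.4, adjusted 0.48). Cox8a differed by -0.15 (SE 0.08), and the forms linked to low oxygen, Cox4i2 and Ndufa4l2, by -0.10 and -0.12.

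Split by label, the members' median was near 0 under one label and positive under the other. Between the 2 rIL-33 and 2 PBS arrays labelled C57BL/6, 32 members were higher and 33 lower, with a median of -0.003, where 45.3% of all genes were higher. Between those labelled WT, 59 were higher and 6 lower, with a median of 0.18, where 50.5% of all genes were higher. Of these, 17 were higher at an unadjusted limma p under 0.05, against 7.39% of all genes, but 0 at an adjusted one. By complex, the medians under the WT label were 0.18, 0.24, 0.22 and 0.06 for complexes I, II, III and IV, and under the C57BL/6 label 0.01, 0.04, -0.06 and -0.02. The test of the difference itself, the interaction term, called 0 members and 0 of all genes at the adjusted threshold, with a limma adjusted p of 0.999 for every member. Of the interaction terms, 55 of 65 were positive, against 55.7% of all genes and 62.9% of the bright class, with a median of 0.18 against 0.02 and 0.05.

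An unadjusted limma p under 0.05 was reached by 3 interaction terms, all positive, as by 2.09% of all genes. Ndufa1 had an interaction of 0.63 (unadjusted p = 0.0361), Ndufb8 of 0.46 (unadjusted p = 0.0391) and Uqcrh of 0.36 (unadjusted p = 0.0393). In Ndufa1 the WT arrays read 7.73 and 7.81 after PBS and 8.37 and 8.03 after rIL-33, whereas the C57BL/6 arrays read 8.93 and 8.79 after PBS and 8.94 and 8.37 after rIL-33. The same split gave a label difference with a member median of -0.37 and 5 called lower within PBS (0.209% of all genes), and of -0.19 and 0 called within rIL-33 (0.0% of all genes). It was negative for 57 of 65 members within PBS and for 56 within rIL-33.

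**Figure D4:**
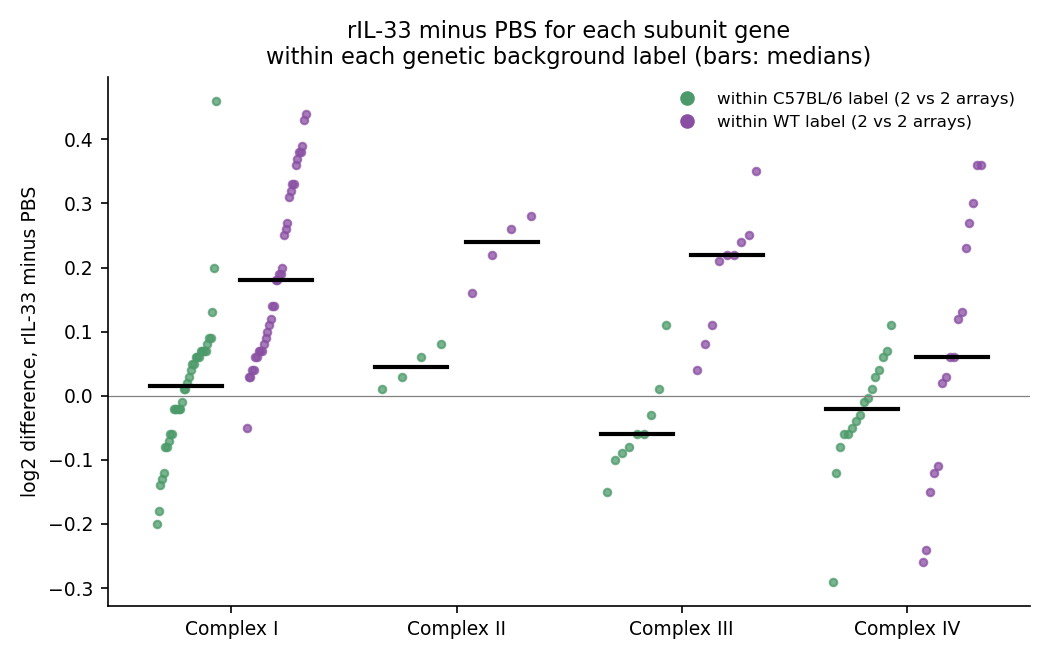
Each point is the log2 difference of 1 subunit gene, rIL-33 minus PBS, within the C57BL/6 label (green) or within the WT label (purple), each from 2 against 2 arrays, and black bars are medians. For complex I the medians are 0.01 and 0.18, and for complex III -0.06 and 0.22.

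Other genes of the mitochondrion and the muscle were read beside the subunits from lists of known genes, each with its count of calls by the label rule of the subunits. By this rule 6.2% of all genes and 9.37% of the bright class were called lower. In direction alone, 54.1% and 69.6% were lower, and these shares stand beside each label count of the lists. ATP synthase, which uses the proton gradient, had 15 of 17 genes lower under the WT label, 5 called, with a median of -0.22. The called genes were Atp5e at -0.78 (SE 0.10, limma adjusted p = 0.0126), Atp5g1 at -0.45, Atp5mpl, Atp5o and Atp5h. Assembly factors of the complexes, which build but do not join them, had 33 of 39 lower and 7 called, with a median of -0.18. They included Nubpl, which brings iron-sulphur clusters to complex I, at -0.48, Sdhaf4 for complex II at -0.70 and Surf1 for complex IV at -0.44, together with Uqcc2, Sdhaf2, Ndufaf7 and Sco1. Of the 2 mitochondrially encoded subunits tested, ND3 differed by -0.03 and COX2 by -0.004. The other 9 were not analysed here. ND3 and COX2 read near the top of the scale, with log2 intensities from 13.36 to 13.70, where the highest gene mean was 14.21. Whether this brightness limited their difference was not tested.

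The enzymes that feed the chain had the same sign. All 15 tested genes of the tricarboxylic acid cycle and pyruvate dehydrogenase were lower under the WT label, with a median of -0.24 and 3 called, namely Suclg1 at -0.54, Dlat at -0.38 and Pdhb at -0.30. All 10 genes of fatty acid oxidation were lower, also with a median of -0.24 and 3 called, namely Acads at -0.45, Hadhb at -0.42 and Acadl at -0.37. The 4 mobile electron carriers had 0 called and a median of -0.17, from Etfdh at -0.38 (limma adjusted p = 0.0511) to Cycs at 0.06. Of 12 regulators of mitochondrial biogenesis, 7 were lower and 2 called, Tfb1m at -0.53 (limma adjusted p = 0.0126) and Tfam, the packaging factor of mitochondrial DNA, at -0.54 (limma adjusted p = 0.0443), with a median of -0.02. Ppargc1a, the coactivator that drives biogenesis, differed by -0.01 between the labels.

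The cell marker lists were read in the same way. Fast fibre genes had a median of -0.09, with 14 of 15 lower and 2 called, Mylpf at -0.51 and Tnni2 at -0.31, and slow fibre genes a median of -0.05, with 1 of 8 called, Tnnt1 at -0.35. Many fast fibre genes read near the top of the scale, and these ran from Ckm and Actn3 at -0.13 to Pvalb at 0.03. Of the less bright ones, Mylpf, Tnni2, Tnnc2 (-0.21) and Tcap (-0.20) differed more, and Ryr1 by -0.04. Whether brightness limited the median of fast fibre genes was not tested. The macrophage list had a median of 0.01 with 0 of 11 called, the fibroblast list -0.03 with 0 of 9 called, and the list of proliferating cells -0.01. Genes of regenerating muscle had a median of -0.25 with 7 of 8 lower and 0 called. They ran from Myog at -0.46 (limma adjusted p = 0.0545) to Mymk at 0.18. Of 7 endothelial genes 1 was called, Kdr at -0.35. With so few genes in a list, these counts of calls lie near the 6.2% of all genes and 9.37% of the bright class called lower. The part of these cell types in the label difference of the subunits was not tested.

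Between the treatments, 0 genes of these lists were called. The subunits' median of 0.08 stood beside medians of 0.09 for ATP synthase, 0.10 for assembly factors, 0.14 for the tricarboxylic acid cycle and 0.10 for fast fibre genes. Slow fibre genes had a median of 0.05, and genes of regenerating muscle one of -0.06 with 8 of 8 lower. Of the lists of other cells, 11 of 11 macrophage genes (median -0.24) and 9 of 9 fibroblast genes (median -0.36) were lower. So were 6 of 6 genes of proliferating cells (median -0.40) and 5 of 7 endothelial genes (median -0.11). In direction alone, 52.0% of all genes and 39.5% of the bright class were lower. At an unadjusted limma p under 0.05, 4 macrophage, 8 fibroblast, 6 proliferation and 3 endothelial genes were lower, against 5.24% of all genes. By that rule 1 endothelial gene was higher, against 4.39%. The 2 adipocyte genes tested had a median of 0.09. The mean of the fibroblast list was 0.29, 0.10, 0.12 and 0.32 on PBS 1 to 4 and -0.28, -0.03, -0.50 and -0.01 on rIL-33 1 to 4. It was lowest on rIL-33 1 and rIL-33 3, the arrays on which the subunits were highest within each label. The part of the cell composition in the treatment difference of the subunits was not tested. Ppargc1a differed by 0.32 after rIL-33 (SE 0.09, limma adjusted p = 0.489), with a median of 0.18 over the biogenesis regulators.

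**Figure D5:**
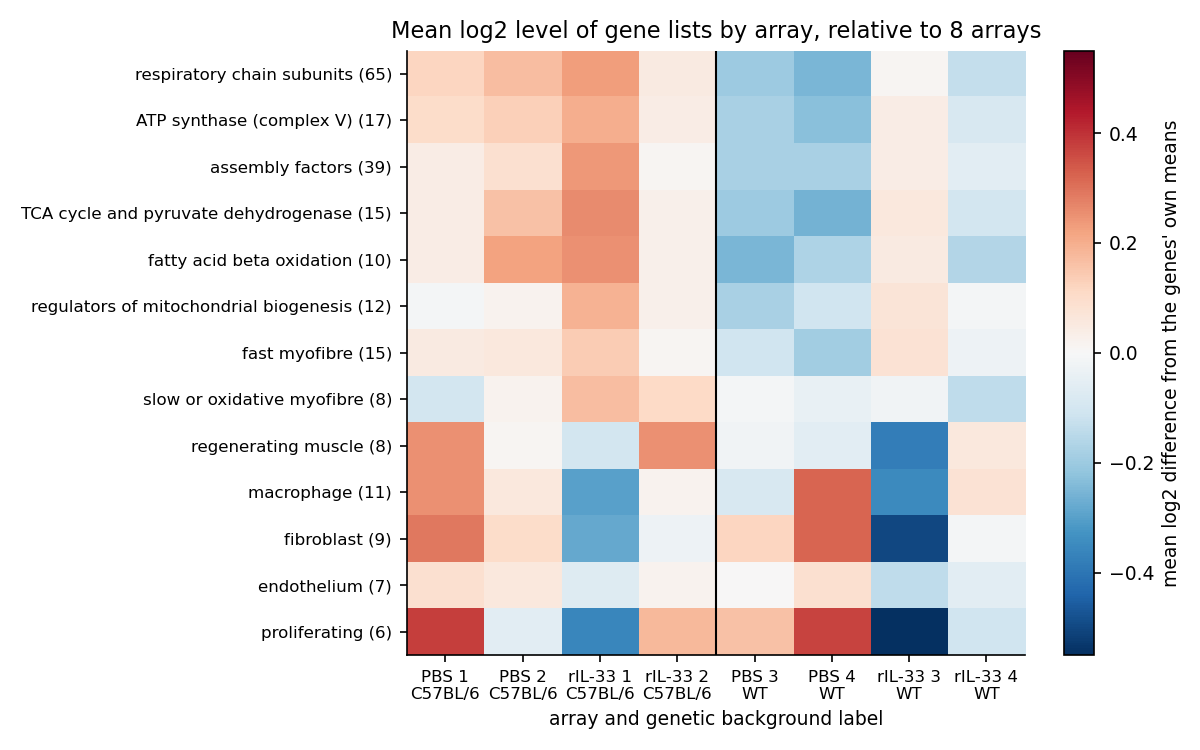
Colours give the mean log2 level of each gene list on each array relative to the genes' own means over the 8 arrays (red above, blue below), with the number of genes in brackets and a line between the labels. The respiratory chain subunits run from 0.23 on rIL-33 1 to -0.25 on PBS 4, and the fibroblast list is lowest on rIL-33 3 at -0.50.

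Among the 66 members, 11 had more than 1 probe set of a single symbol, and for all 11 these probe sets gave 1 sign in both the label and the treatment comparison. Many subunit genes have near-identical processed copies in the genome, and probe sets that such copies share are uncertain. The probe sets that carry the symbols Ndufb4 and Ndufb4b together had label differences of -0.46 and -0.39, and those that carry Cox7c and Gm12338 of -0.19, -0.18 and -0.14. A probe set shared by Ndufs5 and its copy Ndufs5-ps differed by -0.54, beside the -0.63 of the single-symbol probe set of Ndufs5.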

How the data were processed

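Per the submitters' processing notes, the authors made the deposited intensities with RMA and Affymetrix Power Tools, whose versions the sources used here do not give. This method corrects background, equalises the arrays and summarises probes, and it compresses differences of dim genes. The deposited intensities were linear where a log2 scale had been planned for, and log2 was taken first. Of 24922 probe sets, 21425 had 1 gene symbol in the platform annotation, and the one of highest mean stood for each of 19752 genes. The 4938 genes under the 25th percentile (log2 6.65) were left out as dim, leaving 14814.

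All 8 arrays were fitted in limma 3.58.1 (lmFit, eBayes; R 4.3.3), tested on simulated data, with Benjamini-Hochberg adjustment and a threshold of 0.05. The treatment fit had no covariate and the label fit had treatment as one. Isoform pairs were compared by exact permutation. Named members were those called (up to 10 per complex, comparison and direction), the 3 of smallest p per complex and comparison, 6 isoform pairs, the Sdh genes, Cyc1 and members without a test. Genes of the other lists were named where called. Some were named without being called, among them Etfdh, Cycs, Ppargc1a, ND3, COX2 and several fast fibre and regenerating muscle genes. Ndufa1, Ndufs7, Ndufa3, Ndufb7, Uqcrfs1, Uqcrc2, Cox5b, Cox7a2l, Cox8c and the Ndufv group were added for their role or position after values were seen. Members and lists were chosen with earlier results of these data known. Arrays have no read depth; their number sets the precision. The comparison with the brightest genes was added after seeing the data.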

Additional observations from a re-analysis of the deposited data

Results flagged for a closer look

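Of 156 checks within a group of 4 arrays, 10 found 1 array far from the other 3, where chance gives about 1 in 20. All 10 were of named members. Of these, 5 concerned rIL-33 1. In the rIL-33 group its Cox4i2 was 7.95 against 8.10 to 8.13 on the others, and its Cyc1 was 12.20 against 11.99 to 12.01. Among the arrays labelled C57BL/6 its Ndufa4l2 was 8.01 against 8.34 to 8.41, its Ndufa5 was 9.67 against 9.30 to 9.34, and its Ndufs4 was 12.61 against 12.44 to 12.46. In the same label, rIL-33 2 stood low for 3 members, with Cox7a1 at 12.22 against 12.45 to 12.48, Ndufs8 at 11.51 against 11.71 to 11.74, and Uqcrh at 11.61 against 11.86 to 11.89. In the rIL-33 group, Cox6b2 was 7.07 on rIL-33 3 against 6.97 to 6.98. Among the arrays labelled WT, Uqcr11 was 11.70 on PBS 4 against 11.82 to 11.84.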

How the results depend on the processing

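The number of members called lower under the WT label was 31 and ranged from 0 to 40 when 1 array was left out. It was 47 with array weights, 12 after cyclic loess and 10 after quantile normalization, 5 within PBS and 0 within rIL-33, where the median was -0.19; these last 2 fits rest on fewer arrays, and for the scalings and weights the cause was not tested. Over all genes, 919 were called lower, against 351 after cyclic loess, 306 after quantile normalization and 2068 with array weights. That count was 31 within PBS, 0 within rIL-33, 544 without the covariate and from 10 to 1596 with 1 array left out. The label difference of Cox6b2 turned to -0.002 with array weights, -0.05 after cyclic loess and -0.03 after quantile normalization. That of Sdhc turned to 0.04, 0.03 and 0.04 after cyclic loess, after quantile normalization and within rIL-33, that of Cox6a2 to 0.01 after quantile normalization and 0.01 within rIL-33, and that of Cox8a to -0.001 within rIL-33. None of these 4 had been called.

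For treatment, 0 members were called under every alternative run. Sdhd turned to -0.02 with array weights. Within the C57BL/6 label, Cox4i1 turned to -0.06, Cox6b1 to -0.05, Cox8b to -0.003, Cyc1 to -0.03, Ndufa4 to -0.02 and Uqcrc1 to -0.06, and within the WT label Cox7a1 turned to 0.06. With 1 array left out, Cox7a1 ranged from -0.16 to 0.07, Cox6b1 from -0.02 to 0.11 and Sdhd from -0.02 to 0.19. The median of the members ranged from 0.01 to 0.14 for treatment, -0.35 to -0.26 for the label and 0.06 to 0.25 for the interaction. Deviations of samples with the same replicate number correlated at 0.44, -0.19, 0.43 and 0.54 for numbers 1 to 4. Samples of the same number also share the label, so these values cannot decide whether the numbers pair the samples. The labels state no pairing, and the main fits used none. With the replicate number as a block, 0 members were called, with a median of 0.08, and 0 genes in all in place of 1. For dim genes the signal over background limits what can be seen, as for Cox7b2.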
